A study of Mus musculus with 6 samples.

Results

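The genes described here make, break down and coat the triglyceride of lipid droplets. They are the 10 genes Dgat2, Pnpla2, Lipe, Mgll, Plin1, Plin2, Plin3, Plin4, Plin5 and Cidec, chosen by name from the 57127 genes of the count table, and all 10 were abundant enough to be among the 19691 genes tested. RNA of the whole epididymis, the duct in which sperm mature, came from adult C57BL/6 mice that were either wild type (WT) or lacked occludin, a tight junction protein, in every cell of the body (Ocln-/-, here Ocln-KO). There were 3 libraries of each genotype and 6 in all, no other allele or treatment was named for either group, and the knockout is constitutive, so it is not restricted to the epididymis or to an age. The methods speak both of separate extraction from pairs of mice and of pooled RNA, so n counts libraries, and whether 1 library is 1 mouse is not stated.

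A cell stores fatty acids as triglyceride, which a DGAT enzyme forms by adding the last acyl chain to diacylglycerol, and keeps it in droplets bounded by a phospholipid monolayer. Lipases remove the chains in order: ATGL, made from Pnpla2, acts on triglyceride, hormone-sensitive lipase, made from Lipe, acts on diacylglycerol, and monoacylglycerol lipase, made from Mgll, acts on monoacylglycerol. Perilipins sit on the droplet surface and govern how lipases reach the lipid, and CIDEC, also on the surface, lets droplets exchange lipid and grow. Plin1 and Cidec are known as genes of fat cells, and the epididymis lies against a large fat pad, whereas Plin2 and Plin3 are made in most cell types.

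Ocln itself checked the labels, with 78.7 to 91.7 CPM in WT and 14.9 to 15.3 CPM in Ocln-KO, where CPM is the count of a gene per 1000000 counts of its library, scaled by TMM factors. Ocln-KO differed from WT by -2.50 on the log2 scale (standard error, SE, 0.09, adjusted p = 0.000108), by the quasi-likelihood test of edgeR with p-values adjusted by Benjamini and Hochberg's method over all genes tested, as throughout. The libraries held between 30646424 and 38870780 counts, so that 3 counts, taken here as the limit of detection for counting error only, equal between 0.0801 and 0.0941 CPM. On the first principal component of log2 CPM the Ocln-KO libraries scored -17.7, -29.1 and -86.3 and the WT libraries 37 to 52.8, so Ocln-KO replicate 3 stood apart. It also had the lowest summed level of 10 spermatid and sperm markers, 119 CPM against 402 to 539.6 CPM in the other libraries. Crisp1, a defining epididymal transcript, lay between 4436 and 16754 CPM, although a protocol entry of the labels names prefrontal cortex. Some genes that most cells use had few counts, such as Gapdh with 9.91 ± 1.46 CPM in WT (SD, n = 3), so a low count of a gene is not by itself a low level of its transcript.

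In the Ocln-KO epididymis Pnpla2 and Mgll, the genes of the first and the last lipase, were lower, at 76.7% and 69.3% of their WT means. No member was called higher. Thus 2 of the 10 genes were called lower at an adjusted p under 0.05, beside 5.04% of all genes tested, and 0 were called higher, beside 3.91%. At an unadjusted p under 0.05, 6 of the 10 were lower and 0 higher, beside 15.2% and 13.9% of all genes tested. DESeq2 called 4 lower, beside 7.63% of all its genes, and limma-voom 3, beside 5.33%, and neither called any higher, beside 7.12% and 3.7%. The log2 fold change was below 0 for 8 of 10 genes, with a median of -0.46 against 0.01 over all genes tested. In 7 of 10 genes each WT library was above each Ocln-KO library, which held for 19.4% of all genes tested, and in 0 was the order the opposite, which held for 16.9%. Scaling by total counts in place of TMM factors left 1 member called lower and turned the split over all genes from 992 lower and 770 higher to 674 lower and 1174 higher. Without Ocln-KO replicate 3 the 2 members called lower were Dgat2 and Mgll, as without Ocln-KO replicate 1, and without any 1 of the other 4 libraries 0 were called by edgeR, while 4 to 6 members were at an unadjusted p under 0.05. Fewer cells of a type and less RNA per cell cannot be told apart in RNA of a whole organ, and this holds for each difference below.

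**Figure D1:**
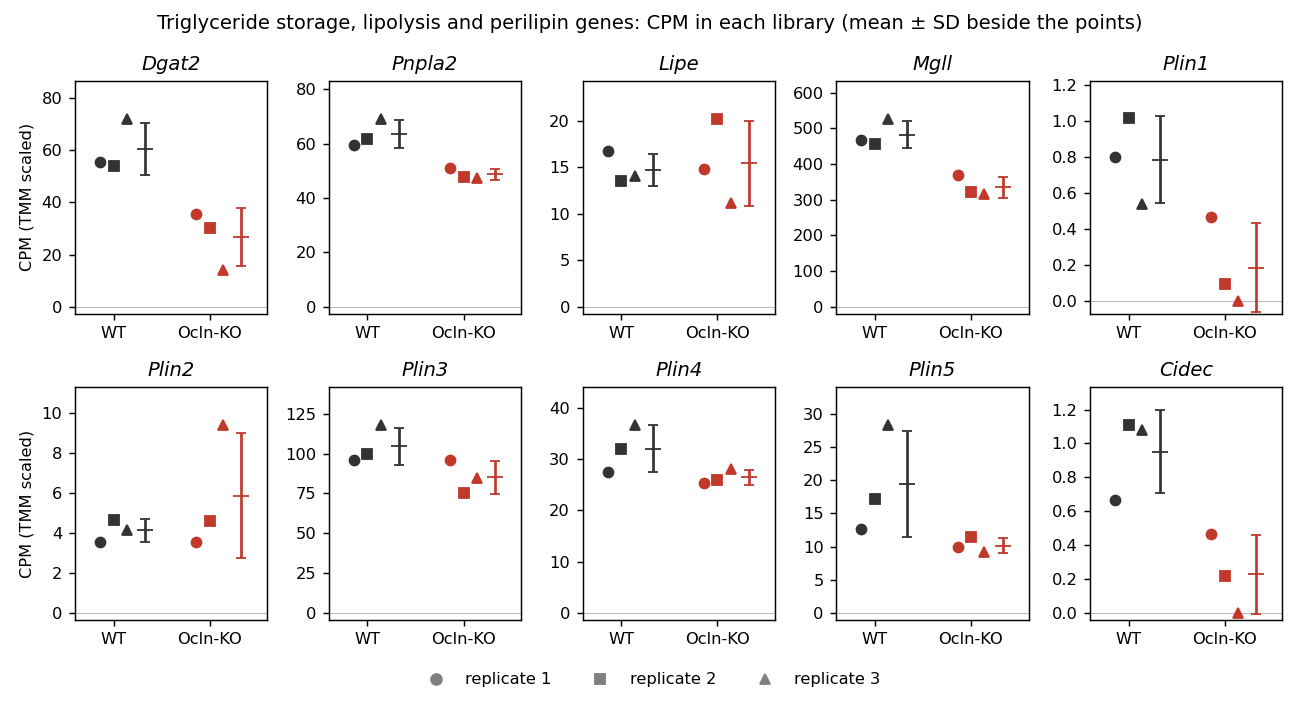
CPM (TMM scaled, vertical axis, from 0 upward) of the 10 genes in each of the 3 WT and 3 Ocln-KO libraries, with mean and SD beside the points. The libraries of Pnpla2 and Mgll separate with little spread, and Plin1 and Cidec stay near or under 1 CPM. Plin2 has 1 library far from the rest, Ocln-KO replicate 3. For Dgat2, WT replicate 3 (72 CPM) stands above the others and Ocln-KO replicate 3 (14.1 CPM) below them.

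**Figure D2:**
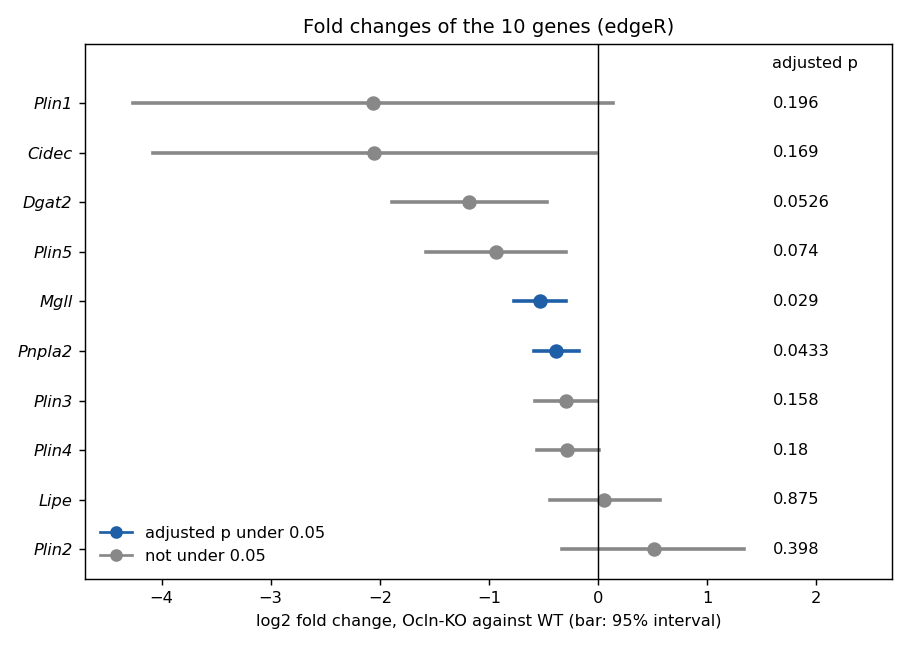
Log2 fold change of Ocln-KO against WT (horizontal axis) with its 95% interval for the 10 genes, and the adjusted p of edgeR at the right; intervals are per gene and not adjusted for the number of genes. Only the intervals of Mgll and Pnpla2 belong to an adjusted p under 0.05, and those of Plin1 and Cidec are the widest, from -4.26 to 0.14 and from -4.08 to -0.02.

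The sequence just upstream of a gene's start holds much of what sets its transcription. RefSeq sequences (GRCm38.p6) of the 250 bases before the start were at hand for 9 of the 10 genes, with 13 start sites in all. Shown are Mgll (its first listed start site) and Pnpla2, the genes called lower, and Plin5 (first site) and Plin2, the members that hold the hexamer AGGTCA, which nuclear receptors such as the PPARs recognise. The sequences run 5′ to 3′ in the direction of the gene, up to the base before its start. Capitals mark AGGTCA, the E-box CACGTG and the GC box GGGCGG, each searched on both strands, so that a match on the other strand reads TGACCT or CCGCCC.
Mgll, chr6:88724162-88724411, plus strand: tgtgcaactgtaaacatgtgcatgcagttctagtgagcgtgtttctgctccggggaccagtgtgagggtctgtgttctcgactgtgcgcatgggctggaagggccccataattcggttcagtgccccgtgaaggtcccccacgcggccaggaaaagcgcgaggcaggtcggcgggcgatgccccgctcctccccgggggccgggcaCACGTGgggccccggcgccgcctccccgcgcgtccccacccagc
Pnpla2, chr7:141454938-141455187, plus strand: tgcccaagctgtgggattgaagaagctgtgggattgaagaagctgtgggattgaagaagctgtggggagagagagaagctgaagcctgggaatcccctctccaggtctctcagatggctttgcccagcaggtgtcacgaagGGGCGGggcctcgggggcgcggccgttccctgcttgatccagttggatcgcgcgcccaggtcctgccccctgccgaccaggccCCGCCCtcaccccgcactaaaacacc
Plin5, chr17:56117549-56117798, minus strand: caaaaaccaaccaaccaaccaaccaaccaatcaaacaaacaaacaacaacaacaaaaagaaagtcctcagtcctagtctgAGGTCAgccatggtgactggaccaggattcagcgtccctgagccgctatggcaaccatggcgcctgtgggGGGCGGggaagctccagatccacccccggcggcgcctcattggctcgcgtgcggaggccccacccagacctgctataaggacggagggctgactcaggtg
Plin2, chr4:86670060-86670309, minus strand: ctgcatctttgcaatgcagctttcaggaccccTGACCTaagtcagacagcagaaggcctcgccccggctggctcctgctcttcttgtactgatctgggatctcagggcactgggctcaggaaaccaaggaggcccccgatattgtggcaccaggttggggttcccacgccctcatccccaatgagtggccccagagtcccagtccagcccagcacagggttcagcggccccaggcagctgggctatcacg

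AGGTCA was in 2 of the 13 member windows, those of Plin2 and Plin5, with its last base 213 and 165 bases before the start. The share of all 32851 RefSeq windows of this length that hold it is 14%. The E-box was in 2 windows, those of Mgll and Lipe, against 6.02% of all windows, and the GC box in 6 windows of 5 genes, against 32.7%. The longer PPAR element AGGTCANAGGTCA was in 0 of the 13 windows and in 11 of all 32851, which is 0.0335%. These matches are letters in a short window and no evidence of binding. The AGGTCA genes, Plin2 and Plin5, had log2 fold changes of 0.51 and -0.93, with neither called, and the E-box genes, Mgll and Lipe, had -0.53 and 0.06, with Mgll called lower.

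Per kilobase of merged exon, which allows levels of different genes to be compared, the lipase gene Mgll led the members in WT with 95 ± 7.63 CPM per kb (SD, n = 3). Plin3 with 27.6 ± 3.15, Pnpla2 with 21 ± 1.66 and Dgat2 with 19.6 ± 3.27 CPM per kb came next, and Pnpla2 and Dgat2 did not differ beyond their spread. Plin5 with 9.3 ± 3.85 and Plin4 with 5.55 ± 0.795 CPM per kb overlapped in their SDs. Lipe had 2.5 ± 0.289, Plin2 1.17 ± 0.157, Cidec 0.513 ± 0.133 and Plin1 0.17 ± 0.0524 CPM per kb, each clear of its neighbours. Plin1 and Cidec thus had the fewest counts per length in WT, with the limit that Gapdh shows for comparing genes. In Ocln-KO Mgll at 65.9 ± 5.67 and Plin3 at 22.5 ± 2.72 CPM per kb again led, and Dgat2 at 8.65 ± 3.64 lay clear of Pnpla2 at 16.1 ± 0.653 CPM per kb.

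Dgat2 makes the enzyme of the final step of triglyceride synthesis and lies on chromosome 7 from 99153658 to 99182719 (GRCm38, GENCODE, as for all genes below). Its CPM was 55.4, 53.8 and 72.0 in WT and 35.6, 30.3 and 14.1 in Ocln-KO. Each Ocln-KO library lay below each WT library, and replicate 3 was the lowest by far. The Ocln-KO mean was 44.1% of WT, and the log2 fold change was -1.18 (SE 0.31, 95% interval from -1.89 to -0.47, edgeR adjusted p = 0.0526), just short of the threshold. Dgat2 was past the threshold with DESeq2 (adjusted p = 0.000599), limma-voom (adjusted p = 0.0415) or no count filter (adjusted p = 0.0134). The same held without Ocln-KO replicate 3 (-0.88, edgeR adjusted p = 0.0143) or replicate 1 (-1.44, edgeR adjusted p = 0.0401). Without WT replicate 1, 2 or 3 it was not called (edgeR adjusted p = 0.14, 0.105 and 0.172). Nor was it called without Ocln-KO replicate 2 (edgeR adjusted p = 0.101).

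Dgat1, the other enzyme of this step, with no sequence kinship to Dgat2, had 14.8, 13.3 and 14.5 CPM in WT and 13.7, 13.5 and 13 in Ocln-KO. The genotypes overlapped, and the log2 fold change of -0.09 was not called (SE 0.12, edgeR adjusted p = 0.678). Per kilobase, Dgat2 exceeded Dgat1 by a ratio of 3.7, 4.01 and 4.93 in the WT libraries and of 2.58, 2.22 and 1.08 in the Ocln-KO libraries. The ratio was lower in each Ocln-KO library than in each WT library, and in replicate 3 the genes were nearly level. On the log2 scale it was 2.06 ± 0.21 in WT and 0.87 ± 0.67 in Ocln-KO (SD), a difference of -1.19, and an exact two-sided permutation test over the 20 splits gave p = 0.1, the smallest that 3 libraries against 3 allow.

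Most other genes of glycerolipid synthesis act before Dgat2 and join fatty acids to a glycerol backbone. Of the 12 tested, edgeR called 1 lower, beside 5.04% of all genes tested, and 0 higher, beside 3.91%. DESeq2 called 2 lower (Agpat2 and Agpat5), beside 7.63% of all its genes, and limma-voom 1 (Agpat2), beside 5.33%. The median log2 fold change was -0.19, against 0.01 over all genes tested. The gene called by edgeR was Agpat2, which makes phosphatidic acid and whose loss in people removes body fat. It had 35.5, 36.1 and 38.3 CPM in WT and 19.1, 23.8 and 19.5 in Ocln-KO. The groups were well apart, and the log2 fold change was -0.82 (SE 0.11, edgeR adjusted p = 0.0137), a call lost without any 1 of the WT libraries (adjusted p up to 0.0778). Agpat5 at -0.64 (adjusted p = 0.0602) and Agpat3 at -0.32 (adjusted p = 0.145) were not called by edgeR, nor was Gpam, the first acyltransferase of the pathway, at -0.20 (adjusted p = 0.213).

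Pnpla2, on chromosome 7 from 141455198 to 141460743, begins the breakdown of stored triglyceride. It had 59.7, 61.8 and 69.2 CPM in WT, against 51.0, 47.8 and 47.5 in Ocln-KO. Libraries of a genotype were close to each other and the genotypes did not overlap. The log2 fold change was -0.38 (SE 0.09, 95% interval from -0.59 to -0.17, edgeR adjusted p = 0.0433). The call was near its threshold: with total counts the log2 fold change was -0.30 (adjusted p = 0.0914), and without any 1 of the 6 libraries in turn it lay between -0.43 and -0.32 with an adjusted p between 0.057 and 0.128.

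Mgll ends lipolysis by splitting monoacylglycerol, the endocannabinoid 2-arachidonoylglycerol included, and lies on chromosome 6 from 88724412 to 88828360. The WT libraries had 466, 455 and 527 CPM of Mgll and the Ocln-KO libraries 368, 321 and 315 CPM. All Ocln-KO libraries were below all WT libraries, with replicate 1 the highest of the Ocln-KO libraries. The log2 fold change was -0.53 (SE 0.11, 95% interval from -0.77 to -0.29, edgeR adjusted p = 0.029). The call was lost without WT replicate 1, 2 or 3 (adjusted p = 0.106, 0.0712 and 0.102) or Ocln-KO replicate 2 (adjusted p = 0.0806), and the log2 fold change then lay between -0.57 and -0.46. An antisense gene, Gm26588, shares 3.29% of the exon bases of Mgll on the other strand.

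Lipe, the gene of hormone-sensitive lipase, on chromosome 7 from 25379527 to 25398710, was not called. Its CPM was 16.7, 13.5 and 14 in WT and 14.8, 20.2 and 11.2 in Ocln-KO. In the Ocln-KO libraries lay both the highest and the lowest value. The log2 fold change was 0.06 (SE 0.22, edgeR adjusted p = 0.875), the 95% interval ran from -0.44 to 0.57, and without Ocln-KO replicate 2 the value was -0.18. Its exons share 15.6% of their bases with 4732471J01Rik on the other strand, and since the strand setting of the counting is not given in the sources used here, reads of the antisense gene cannot be told apart from those of Lipe.

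ATGL works with partners, and their genes gave no call. Abhd5, whose protein activates ATGL, had 23.2, 21.5 and 24.2 CPM in WT and 21.7, 26.8 and 28.6 in Ocln-KO, with a log2 fold change of 0.16 (edgeR adjusted p = 0.44). The inhibitors of ATGL, G0s2 and Hilpda, had log2 fold changes of -0.12 (standard error 0.26, adjusted p = 0.807) and 0.04 (standard error 0.29, adjusted p = 0.945) by edgeR. None of the 3 separated the genotypes. Adrb3, the receptor through which catecholamines start lipolysis in fat cells, was too low to test, at 0.35 CPM or less in 5 libraries and 0.381 CPM in WT replicate 2.

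Among the other lipase genes, all calls were of lower levels in Ocln-KO. Of the 18 tested genes of lipolysis regulators and other lipases, edgeR called 3 lower, beside 5.04% of all genes tested, and 0 higher, beside 3.91%. DESeq2 called 6 lower, beside 7.63% of all its genes, and limma-voom 4, beside 5.33%. Neither called any higher, beside 7.12% and 3.7%. Lipg, called lower by both, had a mean of 719 CPM in WT and 444 in Ocln-KO and was not called by edgeR (-0.70, adjusted p = 0.0563). The median log2 fold change of the list was -0.18. Lipa, the acid lipase of lysosomes, had 89.0, 72.2 and 85.3 CPM in WT and 46.0, 32.9 and 31.9 in Ocln-KO. The highest Ocln-KO library was far below the lowest WT library, with a log2 fold change of -1.15 (SE 0.16, edgeR adjusted p = 0.0137). Ces1d, a carboxylesterase that also splits triglyceride, had 239.8, 209 and 260.4 CPM in WT and 120.0, 101 and 38.3 in Ocln-KO. Its Ocln-KO replicate 3 was again the lowest, and the log2 fold change was -1.45 (SE 0.36, edgeR adjusted p = 0.047). Abhd12, which splits lysophosphatidylserine and monoacylglycerol, was lower by -0.55 (SE 0.14, edgeR adjusted p = 0.0467), whereas Abhd6, another monoacylglycerol lipase gene, was at -0.21 and not called (adjusted p = 0.38). Leaving out 1 library removed these calls in part: that of Lipa without WT replicate 1 or 3, that of Ces1d without any WT library or Ocln-KO replicate 2, and that of Abhd12 without any library but Ocln-KO replicate 1. The highest adjusted p of edgeR was then 0.0784, 0.152 and 0.141 for Lipa, Ces1d and Abhd12.

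Of the 5 perilipin genes 0 were called by edgeR, beside 5.04% of all genes tested called lower and 3.91% called higher. Plin3 and Plin5, 2 of the 5, were lower at an unadjusted p under 0.05, beside 15.2% of all genes tested. DESeq2 called 1, Plin5, lower, beside 7.63% of all its genes. Plin3, Plin4 and Plin5 are neighbours on chromosome 17, where Plin4 (56100591 to 56109803) and Plin5 (56111601 to 56117596) adjoin and Plin3 (56277476 to 56292873) follows at a distance. Their log2 fold changes were all below 0, at -0.29, -0.28 and -0.93. Plin1 was also below 0, and Plin2 above.

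Plin3, whose protein moves between cytosol and new droplets, had 95.9, 99.4 and 118 CPM in WT and 95.8, 75.2 and 84.6 in Ocln-KO. Ocln-KO replicate 1 lay just below WT replicate 1, with nearly the same value. The 95% interval of its log2 fold change ran from -0.58 to -0.01 (SE 0.12, edgeR adjusted p = 0.158). Plin4, the longest perilipin, known from fat and muscle, had 27.5, 32.0 and 36.7 CPM in WT and 25.3, 26.0 and 28.1 in Ocln-KO. Here Ocln-KO replicate 3 lay above WT replicate 1, and the interval ran from -0.56 to 0.01 (SE 0.12, edgeR adjusted p = 0.18).

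Plin5, the perilipin of tissues that burn fat, which ties droplets to mitochondria, had 12.7, 17.2 and 28.3 CPM in WT and 9.87, 11.4 and 9.17 in Ocln-KO. The WT libraries were spread widely while the Ocln-KO libraries were close together, and the genotypes did not overlap. The Ocln-KO mean was 52.4% of WT, with a log2 fold change of -0.93 (SE 0.28, 95% interval from -1.58 to -0.29, edgeR adjusted p = 0.074). DESeq2 (adjusted p = 0.00888) and edgeR without a count filter (adjusted p = 0.0334) put it past the threshold, and limma-voom did not (adjusted p = 0.112). With 1 library left out at a time the log2 fold change lay between -1.16 and -0.55. The edgeR adjusted p was then between 0.0946 and 0.177, so it was never called.

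Plin2, on chromosome 4 from 86648386 to 86670060, makes the main droplet coat of cells other than fat cells, foamy macrophages included. It had 3.55, 4.66 and 4.17 CPM in WT and 3.55, 4.61 and 9.40 in Ocln-KO. Ocln-KO replicates 1 and 2 lay within the WT range, and replicate 3 was above all others. The log2 fold change was 0.51 (SE 0.36, 95% interval from -0.33 to 1.34, edgeR adjusted p = 0.398), and without replicate 3 it was -0.02.

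The sum of macrophage markers was also highest in that library. The summed level of the 12 macrophage markers was 322, 313 and 298 CPM in WT, against 328, 370.2 and 542 in Ocln-KO, and none was at 0. Of these 12 markers 0 were called in either direction by edgeR and 7 had an unadjusted p under 0.05, beside 29.1% of all genes tested, 6 of them higher and 1 lower. Of all genes tested, edgeR called 5.04% lower and 3.91% higher. At an unadjusted p under 0.05, 13.9% of all genes tested were higher and 15.2% lower. DESeq2 called 4 markers higher, C1qa, C1qb, Cd68 and Lyz2, beside 7.12% of all its genes, and limma-voom 0, beside 3.7%. Neither called any lower, beside 7.63% and 5.33%. The median log2 fold change was 0.55, with Lyz2 at 163 CPM in Ocln-KO replicate 3 against 53.1 to 74.2 CPM elsewhere. The markers Cd163, Marco and Mertk went the other way or stayed near 0, at -0.71, -0.89 and -0.08, none called, and each was highest in a WT library. Trem2, a lipid receptor of lipid-laden macrophages, had 2.06, 1.55 and 1.70 CPM in WT and 3.05, 4.14 and 6.51 in Ocln-KO. It was called higher, with a log2 fold change of 1.37 (SE 0.33, edgeR adjusted p = 0.0442). That call was lost without any 1 library other than Ocln-KO replicate 1 (edgeR adjusted p up to 0.144). By limma-voom it was not called (adjusted p = 0.0596). Of the 12 markers of lipid-laden macrophages 1 was called higher, Trem2, beside 3.91% of all genes tested, and 1 lower, Lipa, beside 5.04%. Gpnmb was at 0.52 (edgeR adjusted p = 0.143). The part of macrophages in the level of Plin2 was not tested.

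Plin1, the perilipin of fat cells, which holds ABHD5 away from ATGL until the cell is stimulated, lies on chromosome 7 from 79720218 to 79732903. It had 30, 35 and 20 counts in WT and 15, 3 and 0 counts in Ocln-KO. These are 0.801, 1.02 and 0.538 CPM against 0.467, 0.0941 and 0 CPM, and the 0 of replicate 3 allows up to 0.0887 CPM. The genotypes did not overlap, but the 95% interval of the log2 fold change of -2.06 ran from -4.26 to 0.14 (SE 0.95, edgeR adjusted p = 0.196).

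Cidec, on chromosome 6 from 113424634 to 113435760, showed nearly the same series. Its counts were 25, 38 and 40 in WT and 15, 7 and 0 in Ocln-KO, or 0.668, 1.11 and 1.08 CPM against 0.467, 0.22 and 0 CPM. All Ocln-KO values were below all WT values, but the test was not passed, with a log2 fold change of -2.05 (SE 0.88, 95% interval from -4.08 to -0.02, edgeR adjusted p = 0.169). Its relative Cidea had no count outside Ocln-KO replicate 2, where it had 2, and was not tested.

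Some fat cell markers had an order of libraries like that of Plin1 and Cidec, and others had not. Adiponectin (Adipoq), which only fat cells make, had 0.881, 1.43 and 0.673 CPM in WT and 0.529, 0.0941 and 0 in Ocln-KO. Adipsin (Cfd) had 2.80, 5.18 and 3.87 CPM in WT and 1.65, 1.07 and 0 in Ocln-KO, and Car3 had 6.25, 12.6 and 5.25 CPM against 2.90, 0.909 and 0.0296 CPM. The 3 genes were highest in WT replicate 2 and lowest in Ocln-KO replicate 3, at or below the limit of 3 counts there. Fabp4, at 2.32, 4.6 and 2.39 CPM against 1.56, 1.38 and 0.532 CPM, had the same extremes. Lep, at 0.347, 0.878 and 0.242 CPM in WT and 0.529, 0.0627 and 0.0591 in Ocln-KO, overlapped between the genotypes. So did Aqp7, at 1.83 to 2.11 CPM in WT and 0.887 to 2.07 in Ocln-KO. Of the 12 tested adipocyte markers, 6 had each WT library above each Ocln-KO library, beside 19.4% of all genes tested. The reverse held for 1, beside 16.9%.

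Over the whole list, 12 of 16 adipocyte markers were tested, and edgeR called 1 lower, beside 5.04% of all genes tested, and 0 higher, beside 3.91%. At an unadjusted p under 0.05, 5 were lower and 1 higher, beside 15.2% and 13.9% of all genes tested. The median log2 fold change was -0.92. The summed level was between 75.3 and 95.2 CPM in WT and between 45.4 and 52.5 CPM in Ocln-KO, and no listed marker was at 0 in all libraries. Lpl and Thrsp, with means of 24.7 and 22.2 CPM in WT, were its largest terms there, while Adipoq had 0.996 CPM. In Ocln-KO these means were 21.3, 5.49 and 0.208 CPM, so the sum does not measure fat cells alone. The marker called was Thrsp, a regulator of fatty acid synthesis that is not limited to fat cells, with 22.0, 21.3 and 23.4 CPM in WT and 5.79, 6.43 and 4.26 in Ocln-KO. Thrsp differed by -2.02 on the log2 scale (SE 0.17, edgeR adjusted p = 0.0044). Adipoq at -2.25 (adjusted p = 0.172), Cfd at -2.13 (adjusted p = 0.172), Car3 at -2.66 (adjusted p = 0.11) and Fabp4 at -1.42 (adjusted p = 0.0959) were not called by edgeR. The list holds genes that other cells of the organ also use, such as Lpl with 16.2 CPM or more in every library. Lpl was highest in Ocln-KO replicate 3, at 31.4 CPM, and Pparg and Acvr1c were at -0.14 and -0.05. Cebpa, a transcription factor of fat cells and other cells, was above WT in all Ocln-KO libraries, with 4.54 to 5.68 CPM against 7.31 to 8.25 CPM (0.58, edgeR adjusted p = 0.0753). DESeq2 called 3 markers lower, Cd36, Fabp4 and Thrsp, beside 7.63% of all its genes, and 1 higher, Cebpa, beside 7.12%. With limma-voom 1 was called lower, Thrsp, beside 5.33% of all genes tested, and 0 higher, beside 3.7%. How much of Plin1, Cidec or any other member came from adherent fat was not tested.

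**Figure D3:**
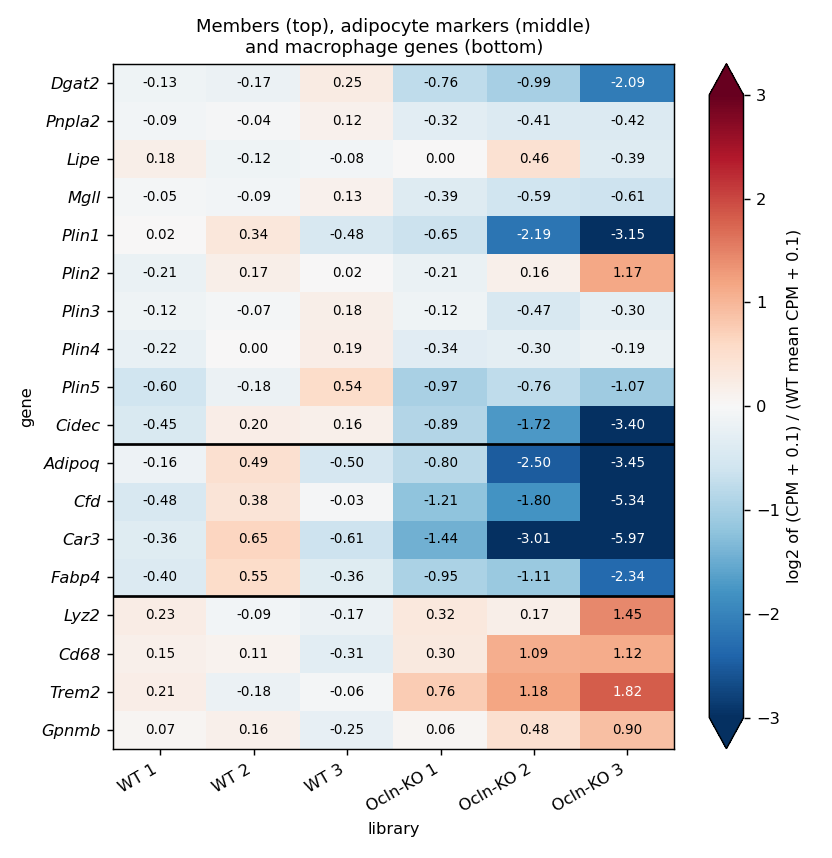
Log2 of each library's CPM over the WT mean, with 0.1 CPM added to both, for the 10 members (top), 4 adipocyte markers (middle) and 4 macrophage genes (bottom); colours saturate at the ends of the scale and the values are printed. Plin1, Cidec, Adipoq and Cfd have 0 counts in Ocln-KO replicate 3, so their values there are set by the added 0.1 CPM and the WT level and are not comparable folds. Plin2 (1.17) and Lyz2 (1.45) are above WT in the same library. The markers shown were picked from longer lists. Of the 12 tested adipocyte markers 11 had a log2 fold change below 0 and 1 above (Cebpa, 0.58), with Pparg at -0.14 and Acvr1c at -0.05. Of the 12 macrophage markers 9 were above 0 and 3 below (Cd163, Marco and Mertk). Of the 12 markers of lipid-laden macrophages 7 were above 0 and 5 below.

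As shares of all perilipin transcript per kilobase, Plin3 made up 63.5 ± 4.14% in WT and 66.7 ± 3.98% in Ocln-KO (SD, n = 3 each). Plin5 followed with 20.7 ± 4.84% and 14.6 ± 2.63%, and Plin4 with 12.7 ± 0.602% and 13.7 ± 1.14%. Plin2 held 2.72 ± 0.462% and 4.95 ± 2.56%, and Plin1 0.404 ± 0.162% and 0.116 ± 0.148%. Plin3 was first in every library, and the order of the means was the same in both genotypes, although in Ocln-KO replicate 3 Plin4 (14.2%) exceeded Plin5 (12.8%). Plin5 was at 13.3, 17.6 and 12.8% in Ocln-KO, with replicate 2 above the 16.3% of WT replicate 1, so the shares overlapped, and Plin2 reached 7.81% in Ocln-KO replicate 3.

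**Figure D4:**
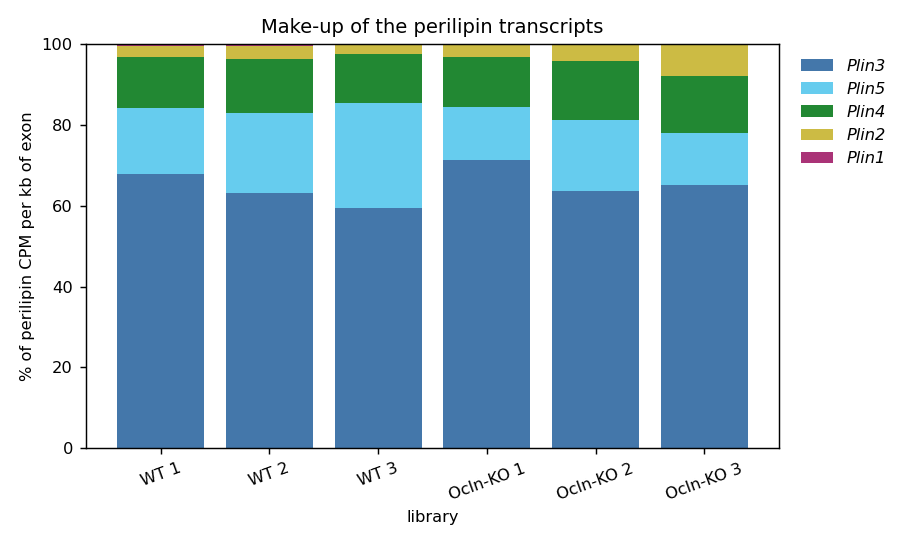
Share of each perilipin gene (vertical axis, percent of summed CPM per kb of exon) in each of the 6 libraries. Plin3 fills between 59.5 and 71.2% of every bar, Plin2 is largest in Ocln-KO replicate 3, and Plin1 is too small to be seen.

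Genes that build the droplet or sit on it beside the perilipins gave 1 call. Of the 18 tested, 1 was called lower, beside 5.04% of all genes tested, and 0 higher, beside 3.91%. The median log2 fold change was -0.14. The gene called was Bscl2, which makes seipin, the ring at the junction of the endoplasmic reticulum and the new droplet. It had 74.3, 64.1 and 78.0 CPM in WT and 48.4, 50.2 and 38.9 in Ocln-KO. The genotypes did not overlap, and the log2 fold change was -0.65 (SE 0.13, edgeR adjusted p = 0.0268), lost without any 1 WT library or Ocln-KO replicate 2 (adjusted p up to 0.111). Tmem159, whose protein is a partner of seipin, was at -0.31 and not called (edgeR adjusted p = 0.0742), and Fitm2, which helps droplets bud, was at -0.14 (adjusted p = 0.651).

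PPARs are nuclear receptors for fatty acids, and several members are known as their targets. Of the 17 tested genes of this system 2 were called lower, beside 5.04% of all genes tested, and 1 higher, beside 3.91%. Their median log2 fold change was 0.09. Ppargc1a, the coactivator that drives mitochondrial genes, had 9.35, 10.2 and 7.96 CPM in WT and 5.36, 4.55 and 2.81 in Ocln-KO, a log2 fold change of -1.12 (SE 0.26, edgeR adjusted p = 0.04). Ehhadh of peroxisomal oxidation was lower by -0.41 (edgeR adjusted p = 0.0448), and Acadl of mitochondrial oxidation was higher by 0.61 (edgeR adjusted p = 0.0453). Thus oxidation genes were called in both directions. Each of these 3 calls was lost without any WT library or Ocln-KO replicate 2, with an adjusted p of up to 0.135, 0.158 and 0.132 for Ppargc1a, Ehhadh and Acadl, and that of Ehhadh also without Ocln-KO replicate 1 and that of Acadl without replicate 3. Ppara at 0.09 (adjusted p = 0.8) and Pparg at -0.14 (adjusted p = 0.859) were not called by edgeR, and Angptl4, a secreted inhibitor of lipoprotein lipase, had 0 counts in all libraries.

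**Figure D5:**
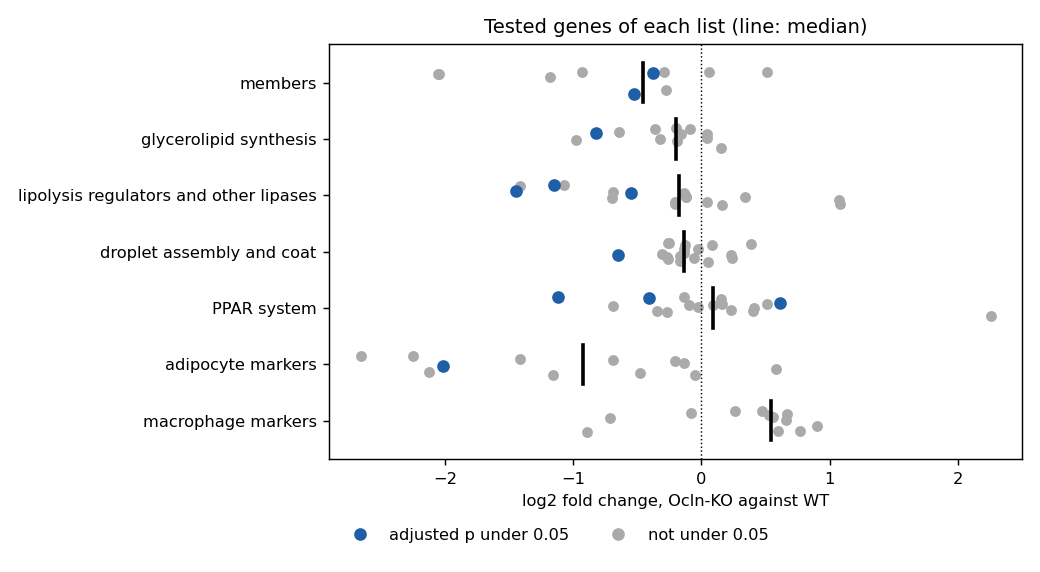
Log2 fold change of Ocln-KO against WT (horizontal axis) of each tested gene in 7 lists, with called genes in blue and the list median as a line; vertical scatter within a list is only for display. Medians lie from -0.92 for adipocyte markers and -0.46 for the members to 0.55 for macrophage markers, while that of all genes tested is 0.01.

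For each member with a mean of at least 1 CPM, the genes with the most similar log2 CPM across the 6 libraries were listed by Pearson's r, as a description without a test, since the libraries share 1 contrast and r was searched over many genes. Dgat2 was nearest to Dhrsx (r = 0.9996) and Cbs (0.9987), and like Dgat2 both were highest in WT replicate 3 and lowest in Ocln-KO replicate 3. Mgll was nearest to Vsig1 (0.9993) and Tmem94 (0.9961), and Pnpla2 to Stk25 (0.9985) and Prpf8 (0.9980). Among the perilipins, Plin5 was nearest to Snd1 (0.9975) and Gm4521 (0.9963), Plin2 to S100a4 (0.9940) and 1700113A16Rik (0.9927), Plin3 to Ttll9 (0.9925) and 1700020I14Rik (0.9914), and Plin4 to Agap3 (0.9941) and Cpsf4l (0.9860). Lipe had the least similar neighbours, 4921539E11Rik (0.9901) and Mroh2a (0.9765). Of these, Cbs, Tmem94 and Vsig1 were called lower by edgeR, beside 5.04% of all genes tested. Vsig1 had 11.0, 9.87 and 15.3 CPM in WT, 5.42, 3.54 and 3.61 in Ocln-KO and a log2 fold change of -1.52 (edgeR adjusted p = 0.0203). All neighbours were picked for likeness to a member, so shared calls and shared extremes follow from that choice and are no separate evidence. S100a4, picked for its likeness to Plin2, was also highest in Ocln-KO replicate 3, at 4.70 CPM against 1.26 to 1.94 CPM elsewhere.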

How the data were processed

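Whole-epididymis RNA of 3 WT and 3 Ocln-KO libraries was rRNA-depleted and sequenced as paired ends from directional libraries. The authors trimmed and filtered the reads, aligned them to GRCm38 (HISAT2 2.0.4 per the submitters' processing notes) and counted with HTSeq. The deposited values are the raw count per gene and library, not normalized. Counting mode, strand setting and the handling of reads that align to several places are not given in the sources used here. All columns were matched to samples by name (0 unmatched).

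Genotypes were compared with edgeR 4.0.16 in R 4.3.3 (filterByExpr, TMM, glmQLFit, glmQLFTest), called at a Benjamini-Hochberg adjusted p under 0.05 over the 19691 genes kept of 32046 with a count. CPM uses TMM-scaled totals; 3 counts were taken as the limit of detection. Standard errors are the log2 fold change over the square root of F, and intervals are at 95%. The labels do not say that libraries are separate mice, so p-values measure the spread between libraries, which may be partly technical.

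The members and the gene and marker lists were chosen with earlier results of these data known. Named are the members, Ocln, the called genes of each list (at most 6), partners of members fixed by name, and the 2 nearest genes per member by r. Genes named outside that rule (Gapdh, Crisp1, Lyz2, Cd68, C1qa, C1qb, Cd163, Marco, Mertk, Cebpa, Acvr1c, Cd36, Lep, Aqp7, Agpat3, Agpat5, Gpam, Abhd6, Lipg, Tmem159, Fitm2, Ppara, Angptl4, Car2 and Ucp1) were chosen after their values were seen. Gene coordinates and merged exon lengths are from GENCODE for GRCm38, and upstream sequences from RefSeq.

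Alternatives were RLE factors, total counts, TMM without the 20 most abundant genes, no filter, at least 10 counts in every library, DESeq2 1.42.0, limma-voom (limma 3.58.1), a replicate block, a fold change over 2 or under 0.5 in addition, and each library left out. The fits were tested on simulated counts.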

Additional observations from a re-analysis of the deposited data

How the results depend on the processing

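The number of members called lower, 2, was 1 with total counts, 4 without a count filter, 4 with DESeq2, 0 with the replicate block and 0 when a fold change over 2 or under 0.5 was also required. With 1 library left out at a time it ranged from 0 to 2, the 2 without Ocln-KO replicate 1 or 3 being Dgat2 and Mgll, and the number called higher was 0 throughout. Same-numbered libraries did not deviate together (correlations of -0.05, -0.03 and 0.00), so the replicate numbers were not read as pairs. With the replicate block, which spends degrees of freedom, 31 genes of the whole table were lower and 10 higher, against 992 and 770, Mgll was at -0.53 (adjusted p = 0.098) and Pnpla2 at -0.38 (adjusted p = 0.12).

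Dgat2 passed the threshold without a count filter (-1.18), with DESeq2 (-1.18) and with limma-voom (-1.28), and ranged from -1.44 to -0.88 with 1 library left out. Plin5 passed without a count filter (-0.93) and with DESeq2 (-0.93), but not with limma-voom (-0.86) or with any 1 library left out. Pnpla2 missed the threshold with total counts (-0.30). With 1 library left out Pnpla2 ranged from -0.43 to -0.32, Mgll from -0.60 to -0.46, Lipe from -0.18 to 0.25 and Plin2 from -0.02 to 0.77. Signs turned for Lipe (-0.18 without Ocln-KO replicate 2), Plin2 (-0.02 without Ocln-KO replicate 3), G0s2 (0.10 without WT replicate 2 and 0.01 without Ocln-KO replicate 3, range -0.27 to 0.10), Hilpda (-0.23 without Ocln-KO replicate 3, range -0.23 to 0.19) and Pparg (0.06 without WT replicate 1 and 0.06 without Ocln-KO replicate 3, range -0.39 to 0.06). The cause was not tested.

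Of the lists, calls in glycerolipid synthesis (1) were 2 without a filter, 2 with DESeq2, 0 with the replicate block and 0 to 1 with 1 library left out. Calls in lipolysis (3) were 1 with total counts, 5 without a filter, 6 with DESeq2, 0 with the block and 0 to 5 with 1 library left out. Droplet genes called (1) were 0 with the block and 0 to 2 with 1 library left out, and adipocyte markers called (1) were 2 without a filter, 4 with DESeq2 and 1 to 4 with 1 library left out. Over the whole table DESeq2 called 1637 lower and 1528 higher, total counts 674 and 1174. Without WT replicate 1 the counts were 19 and 4, without WT replicate 2 145 and 85, without WT replicate 3 40 and 16, and without Ocln-KO replicate 2 342 and 220, while without Ocln-KO replicate 1 or 3 they were 875 and 782 or 944 and 748. Leaving out a library lowers the degrees of freedom. Requiring 10 counts in every library gives no value for Plin1 and Cidec, which 15 or fewer counts per Ocln-KO library limit most.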

Other observations

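Markers of other cell types of the organ were also called. For each list in this section, the shares of all genes tested that edgeR called were 5.04% lower and 3.91% higher, and 29.1% were at an unadjusted p under 0.05. Of the 6 tested clear cell markers, genes of the proton-secreting cells of the duct, 4 were called lower and 0 higher, with a median log2 fold change of -1.0. They were the proton pump subunit genes Atp6v0d2 (-1.56, adjusted p = 0.0201), Atp6v0a4 (-1.21, adjusted p = 0.0245) and Atp6v1b1 (-0.78, adjusted p = 0.0458) and their regulator Foxi1 (-0.77, adjusted p = 0.0332), all by edgeR. Each of these calls was lost without any 1 of the WT libraries. That of Atp6v1b1 was lost without any 1 library of either genotype (edgeR adjusted p between 0.0551 and 0.142), and limma-voom did not call it. Car2, a carbonic anhydrase, had 137, 98.4 and 161 CPM in WT and 46.3, 62.7 and 5.88 in Ocln-KO, with Ocln-KO replicate 3 lowest as for Dgat2, and was not called (-1.79, adjusted p = 0.127). Of 8 basal cell markers 1 was called higher, the keratin gene Krt14 (0.58, adjusted p = 0.0276 by edgeR). Of 8 smooth muscle markers 2 were, Myh11 (0.77, edgeR adjusted p = 0.0296) and Actg2 (1.09, edgeR adjusted p = 0.0489). These calls were also lost without any 1 of the WT libraries, and limma-voom did not call Actg2.

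Of the 10 spermatid and sperm markers 0 were called in either direction by edgeR and 0 had an unadjusted p under 0.05, and DESeq2 and limma-voom called 0, with Ocln-KO replicate 3 lowest in the sum. Of the 9 tested epididymal epithelium markers, Defb48 was called lower (-1.27, adjusted p = 0.0354) and Spag11b higher by edgeR. Spag11b, of a defensin family with close relatives, had 0.294, 0.527 and 0.135 CPM in WT, against 1.09, 144 and 215 in Ocln-KO, with replicate 1 far below the other two. Of the 8 tested skeletal muscle markers, Myh1 was called lower (-3.90, adjusted p = 0.0275) and Acta1 higher (1.97, adjusted p = 0.0379), while the summed level of that list lay between 15.2 and 26.7 CPM in all 6 libraries. Of the 3 tested brown adipocyte markers 1 was called lower, Ppargc1a, and the defining Ucp1 was at 0.22 CPM or less. The calls of Defb48, Spag11b, Myh1 and Acta1 were lost without any 1 of the WT libraries. Of these genes limma-voom called Defb48 only.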
